A study of Mus musculus with 57 samples.

Results

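Lrp2, Cubn, Amn and Dab2 encode the endocytic apparatus of the primitive and visceral endoderm. Lrp2 (megalin) is a large endocytic receptor of many ligands, and Cubn (cubilin) is a multiligand receptor without a transmembrane segment. Amn (amnionless) anchors cubilin in the membrane and carries it to the cell surface, and Dab2 is a clathrin adaptor that binds receptor tails and links them to the endocytic coat. Megalin and DAB2 are widely used as marks of primitive endoderm (PrE), the tissue that GATA6 specifies in the blastocyst beside the epiblast (Epi), while NANOG and SOX2 belong to the Epi and to embryonic stem (ES) cells. GATA4 and SOX17 are further PrE transcription factors (TFs).

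TF occupancy had been mapped by CUT&RUN, in which an antibody guides a nuclease to the sites of a protein and the released DNA is sequenced. All groups came from KH2 ES cells, labelled as strain C57BL/6, that carry the transgene TRE:GATA6-DSREd2, which doxycycline (Dox) switches on. Cells at 0 h had no Dox and grew in 2i medium, whereas induced cells grew in serum medium with Dox for up to 12 h and without it afterwards, so medium and induction cannot be told apart in any comparison with 0 h. There were 15 groups of 2 peak lists each. GATA6 was mapped at 0, 2, 4, 8 and 48 h, each Epi factor (NANOG, SOX2) at the first 4 of these time points, and the later PrE factors GATA4 and SOX17 once, at 24 h. This is 1 engineered line that starts from an Epi-like state, and the study describes its replicates as independent experiments, without saying for these libraries whether they were separate cultures. P-values therefore measure only the spread between these lists, part of which may be technical. No transcript was measured in these files.

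A peak was taken when its summit, the position of highest coverage, lay within 50 kb of the transcription start site (TSS) of 1 of the 4 genes in the mouse build mm10 (GRCm38). The TSSs were chr2:69586065 for Lrp2 and chr2:13491813 for Cubn, both on the minus strand, and chr12:111271095 for Amn and chr15:6299788 for Dab2 on the plus strand. This gave 263 of 775295 peaks, 107 near Lrp2, 100 near Cubn, 33 near Amn and 23 near Dab2. Peaks of any list that overlapped by at least 1 bp were joined into sites, 67 of 202062 in the series. Lrp2 had 26 sites, Cubn 21, Amn 14 and Dab2 6. Sites are named here by the distance of their centre from the TSS, with a minus sign for upstream, and the centre is the summit of the highest GATA6 fold where there is one. Of the 67 sites, 33 were in 1 list only, 27 in 2 to 9 lists and 7 in 10 or more. The member was the nearest protein-coding TSS for 58 of them, and for the others it was Bbs5 or Trdmt1.

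The 6 GATA6 lists of 4, 8 and 48 h are used by the time in their names. In the GEO record these lists are attached to other samples, so that by the record the values given here for 48 h would be those of 4 h, those for 4 h of 8 h, and those for 8 h of 48 h. Values are the fold enrichment over the local background that the authors' peak caller gave, written as replicate 1 and replicate 2. The lists hold no read totals. The background coverage, which follows depth, was 0.287 and 0.315 fragments per base in the GATA6 0 h lists, 0.928 to 1.34 in the induced GATA6 lists, 0.865 to 1.31 for NANOG, 0.29 to 0.692 for SOX2, and 1.23 and 1.55 for SOX17. It could not be obtained for GATA4, whose lists had been filtered by a rule not given in the sources used here.

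The sequences of the sites on which the results turn are shown here, each as 201 bases of the plus strand of GRCm38 (RefSeq). Capitals mark the GATA letters AGATAA together with AGATAG, likewise TGATAA together with TGATAG, and the SOX letters ACAATG together with ACAAAG, on either strand, where matches may overlap. The windows of Lrp2 +3.3 kb, Cubn +2.1 kb, Amn -3.1 kb and Dab2 -39.7 kb are centred on the SOX17 summit and those of Lrp2 -16.2 kb and Cubn -4.4 kb on the highest GATA6 summit. Dab2 +20.2 kb is given around its 2 h summit of replicate 1. The centre was thus not set by the same rule for every site. The windows around the highest GATA6 summit of Lrp2 +3.3 kb and the SOX17 summit of Cubn -4.4 kb, which are not printed, hold none of these letters.
Lrp2 +3.3 kb (chr2:69582931-69583131): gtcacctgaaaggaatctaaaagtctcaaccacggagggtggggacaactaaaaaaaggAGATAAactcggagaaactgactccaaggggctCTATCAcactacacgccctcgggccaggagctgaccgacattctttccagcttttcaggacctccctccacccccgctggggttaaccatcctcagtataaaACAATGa
Lrp2 -16.2 kb (chr2:69602206-69602406): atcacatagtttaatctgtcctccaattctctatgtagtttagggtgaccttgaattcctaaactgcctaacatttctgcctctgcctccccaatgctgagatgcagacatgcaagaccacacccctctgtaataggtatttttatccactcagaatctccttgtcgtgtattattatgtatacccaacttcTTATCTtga
Cubn +2.1 kb (chr2:13489557-13489757): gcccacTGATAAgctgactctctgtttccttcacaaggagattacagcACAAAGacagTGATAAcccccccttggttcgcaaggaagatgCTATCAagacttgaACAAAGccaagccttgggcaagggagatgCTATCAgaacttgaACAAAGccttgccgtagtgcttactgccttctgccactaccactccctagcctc
Cubn -4.4 kb (chr2:13496079-13496279): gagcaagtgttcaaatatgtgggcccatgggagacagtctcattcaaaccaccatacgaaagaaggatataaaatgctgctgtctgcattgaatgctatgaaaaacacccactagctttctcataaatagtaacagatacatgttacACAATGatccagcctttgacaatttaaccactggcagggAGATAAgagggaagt
Amn -3.1 kb (chr12:111268085-111268285): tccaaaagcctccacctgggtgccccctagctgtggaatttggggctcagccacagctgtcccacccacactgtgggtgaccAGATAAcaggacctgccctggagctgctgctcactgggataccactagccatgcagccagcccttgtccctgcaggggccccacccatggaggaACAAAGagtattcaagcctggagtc
Dab2 +20.2 kb (chr15:6320144-6320344): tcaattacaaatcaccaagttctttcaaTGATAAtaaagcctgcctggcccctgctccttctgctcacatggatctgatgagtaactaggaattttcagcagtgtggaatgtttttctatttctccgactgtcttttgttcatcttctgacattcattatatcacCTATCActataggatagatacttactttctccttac
Dab2 -39.7 kb (chr15:6260006-6260206): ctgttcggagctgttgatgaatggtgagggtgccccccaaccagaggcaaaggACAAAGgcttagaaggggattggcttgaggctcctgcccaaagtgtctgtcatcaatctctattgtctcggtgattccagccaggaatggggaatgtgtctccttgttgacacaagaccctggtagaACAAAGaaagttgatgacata

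Of the 44768 sites with GATA6 in both 2 h lists across the genome, 54.6% held GATA letters and 33.9% SOX letters in the 201 bases around the highest GATA6 summit. Of the 10 such sites near the 4 genes, 8 held GATA letters and 4 held SOX letters. Among these 10, 1 site held 10 or more GATA matches, as did 1.05% of all such sites. The mean number of GATA matches was 4.2 with it and 1.22 without it, beside 1.02 over all such sites. Around SOX17 summits, 12 of the 19 sites near the 4 genes and 44.6% of all 19082 SOX17 sites held SOX letters. A match is a description of the letters and shows no site of binding.

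The first question was when GATA6 reached these genes. In both GATA6 0 h lists, of 84 and 880 peaks in all, none of the 4 genes had a peak, and 0.00456% of all 21938 protein-coding genes had a GATA6 peak in both. All 4 had a peak in both lists at 2 h, beside 78.3% of all genes, at 4 h, beside 71.2%, and at 8 h, beside 57.9%. Lrp2 had 8 and 6 peaks at 2 h, 6 and 9 at 4 h, 6 and 7 at 8 h, and 4 and 5 at 48 h. Cubn had 5 and 5 peaks at 2 h, 4 and 6 at 4 h, 6 and 9 at 8 h, and 4 and 6 at 48 h. Both receptor genes thus had a lower count in every 0 h list than in any induced list. The counts of Lrp2 at 48 h lay below those of all 6 earlier induced lists, and those of Cubn overlapped between time points.

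The co-receptor and adaptor genes had fewer peaks. Amn had 2 and 1 peaks at 2 h, 1 and 2 at 4 h, and 1 in every list at 8 and 48 h. Dab2 had 3 and 1 peaks at 2 h, 2 and 3 at 4 h, 2 and 1 at 8 h, and 1 and 0 at 48 h. At 2 h both lay below the mean of all genes, 4.54 peaks, and 26.2% of genes had fewer peaks than Amn and 32.1% fewer than Dab2.

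The number of GATA6 peaks over the 5 time points was compared for all 17885 genes with at least 3 GATA6 peaks. An exact permutation of the lists among time points was used, in which changes in either direction count. None of the 4 genes passed after Benjamini-Hochberg adjustment over all genes, while 47.6% of all genes did. For Lrp2 the exact permutation p was 0.0413 and the adjusted p 0.0714, for Cubn 0.054 and 0.0801, for Dab2 0.2 and 0.234, and for Amn 0.206 and 0.239. The adjusted p of Lrp2 was 0.029 and that of Cubn 0.029 when peaks were counted per 10000 peaks of the list, and Amn then had 0.0445, so these calls depend on the scale of the count. A GATA6 0 h list needed a coverage of at least 17.4 or 15.9 times background to call a peak, against 4.48 to 7.55 in the induced lists, and 3 of the 10 sites with GATA6 in both 2 h lists (Lrp2 +3.3 kb, Lrp2 -16.2 kb and Dab2 +20.2 kb) exceeded the higher limit in both 2 h lists. Lrp2 -5.9 kb exceeded it in 1 list, with 17.9, and the other 6 in neither. These limits hold where the local background is that of the list.

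The receptor genes stood apart from most genes late in the time course. Over all protein-coding genes the mean number of GATA6 peaks was 4.54 at 2 h, then 3.2 (4 h) and 1.84 (8 h), and 0.483 by 48 h. At 48 h Lrp2 had 4.5 ± 0.707 peaks (SD, n = 2) and Cubn 5.0 ± 1.41, and 99.5% and 99.7% of genes had fewer. At 2 h these shares were 75.3% and 62.0%. Lrp2, Cubn and Amn had a GATA6 peak in both 48 h lists, as had 20.6% of all genes, and Dab2 had not. Without the 0 h lists, the test over 2 to 48 h called no gene of 17850 after adjustment (7133 at an unadjusted p under 0.05). The smallest exact permutation p that 8 lists allow is 0.00952, which 2027 genes had. A gene could thus not pass by its own counts alone. The exact permutation p was 0.371 for Lrp2, 0.486 for Cubn, 0.429 for Dab2 and 1.0 for Amn. The place of the receptor genes among all genes is thus a description of each time point and not a tested change.

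**Figure D1:**
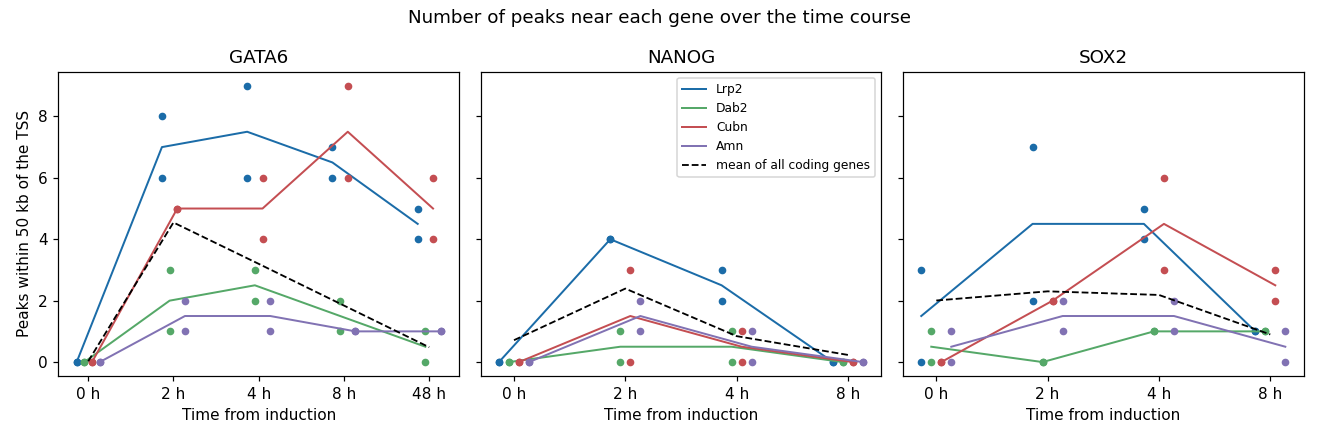
Number of peaks within 50 kb of the TSS (vertical axis) against time from induction (horizontal axis, categories not to scale) for GATA6, NANOG and SOX2. Points are single lists, lines join the means of 2 lists and the dashed line is the mean over all coding genes, which for GATA6 is 4.54 at 2 h and 0.483 at 48 h. At 48 h the GATA6 counts of Lrp2 and Cubn, between 4 and 6, lie above the dashed line, and NANOG counts of all 4 genes are 0 at 0 and 8 h.

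Single sites were then followed. Of the 10 sites with GATA6 in both 2 h lists, 5 lay near Lrp2, 3 near Cubn, 1 near Dab2 and 1 near Amn. Without the 2 h list of replicate 2 the number was 18. Of the 10, 8 kept a peak in both lists at 4 h, beside 63.8% of all such sites, and 7 at 8 h, beside 38.0%. At 48 h it was 4, beside 5.79% of all such sites. By the GEO record the number at 48 h was 7. The 4 sites, Lrp2 +3.3 kb, Cubn +2.1 kb, Cubn -4.4 kb and Amn -3.1 kb, had GATA6 in all 8 induced lists, as had 5.23% of all GATA6 2 h sites.

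Lrp2 +3.3 kb, in an intron of Lrp2 (chr2:69581915-69583397), had the highest GATA6 fold of all sites near the 4 genes. GATA6 had a fold of 33.1 and 20.8 in the 2 h lists and of 18.2 and 20.9 in those of 4 h. In the 8 h lists it was 10.4 and 7.99, and in the 48 h lists 5.53 and 2.7. The lists of 2 and 4 h all lay above those of 8 h, and those of 8 h above those of 48 h. The 2 h peaks rested on 130 and 90 fragments at the summit (95% exact Poisson intervals 109 to 154 and 72.4 to 111, which cover counting error only), and the 48 h peaks on 35 and 20. The summits also differed in place. At 2 and 4 h they lay 3207 to 3252 bp downstream of the TSS, where the 201 bases around the highest one hold none of the searched letters, at 8 h they were split between 3224 and 3033 bp, and at 48 h they lay 3097 and 3093 bp downstream, within the printed window that holds AGATAA. The GATA4 summits lay 3108 and 3095 bp downstream. The local background under the GATA6 peaks, relative to that of the list, moved with the fold and the place. It was 2.21 and 3.04 at 2 h, 3.19 and 3.09 at 4 h, 3.31 and 5.53 at 8 h, and 5.94 and 5.57 at 48 h, and its part in the fold was not tested.

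Lrp2 -16.2 kb (chr2:69601898-69602788, intergenic) had a GATA6 fold of 22.2 and 14.2 at 2 h, 15.0 and 22.8 at 4 h, and 14.4 and 19.5 at 8 h. At 48 h only replicate 2 had a peak, with a fold of 4.96. The lists of 2, 4 and 8 h overlapped, and the 1 peak at 48 h lay below all of them. The local background was that of the list in all 15 lists with a peak.

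Cubn -4.4 kb (chr2:13495700-13496924, intergenic) had its highest GATA6 fold at 48 h. Its GATA6 fold was 7.04 and 6.16 in the 2 h lists, 6.98 and 11.8 in those of 4 h, 9.74 and 8.77 in those of 8 h, and 17.4 and 15.4 in the 48 h lists. Both 48 h lists lay above all earlier ones. Within their lists, the folds at 48 h stood at percentiles 97.1 and 97.2 of all peaks, and those at 2 h at 68.1 and 58.4. No NANOG or GATA4 list had a peak there.

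Cubn +2.1 kb (chr2:13489170-13489924, in an intron of Cubn) had GATA6 folds of 4.19 and 5.91 at 2 h, 6.63 and 10.2 at 4 h, 8.04 and 10.2 at 8 h, and 6.71 and 6.98 at 48 h. All 8 GATA6 summits lay within 41 bp of each other, from 2126 to 2167 bp downstream of the TSS. The printed sequence holds 4 GATA and 3 SOX matches. At this site the local background was 4.84 to 6.76 times that of the list in every list where it could be obtained, and the plain ratio of coverage to local background at 2 h was 4.58 and 6.76.

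Amn -3.1 kb (chr12:111267408-111268539, intergenic) was the only site near Amn with GATA6 in both lists of any time point. GATA6 folds there were 10.3 and 6.18 in the 2 h lists, 17.0 and 22.1 in those of 4 h, 8.88 and 16.8 in those of 8 h, and 5.04 and 11.7 in the 48 h lists. Both 4 h lists lay above all others, and the lists of 2, 8 and 48 h overlapped. The site had a peak in 17 of the 30 lists.

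Dab2 +20.2 kb (chr15:6319462-6320755, in an intron of Dab2) had GATA6 folds of 13.7 and 15.2 at 2 h, 19.4 and 20.0 at 4 h, and 19.2 and 23.2 at 8 h. Both 2 h lists lay below all lists of 4 and 8 h, and neither 48 h list had a peak. Of the 6 summits, 3 lay 20055 to 20183 bp downstream of the TSS. The other 3, among them both 2 h summits, lay 20422 to 20456 bp downstream, where the printed sequence holds TGATAA and also the reverse complement of TGATAG.

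The fold at the 4 sites with GATA6 in all 8 induced lists was set beside that of the 2342 such sites in the genome, a test added after the data were seen. The median log2 fold of all sites was 0.85 lower at 48 h than at 2 h, and the values here are relative to the median of each list. The log2 difference between 48 and 2 h was 2.17 at Cubn -4.4 kb (mean -0.99 at 2 h and 1.18 at 48 h), higher than at 97.3% of sites, and 1.32 at Cubn +2.1 kb. It was 0.80 at Amn -3.1 kb and -1.91 at Lrp2 +3.3 kb, where 3.33% of sites had a lower value. In the exact permutation test over the 4 time points 0 of 2342 sites (0.0%) passed after adjustment and 929 had an unadjusted p under 0.05. The smallest p that 8 lists allow is 0.00952, so a site could not pass by its own values alone. The exact permutation p was 0.0286 for Cubn -4.4 kb (adjusted p = 0.0955), 0.00952 for Cubn +2.1 kb (adjusted p = 0.0678), 0.0381 for Lrp2 +3.3 kb (adjusted p = 0.109) and 0.295 for Amn -3.1 kb (adjusted p = 0.367). Before the medians were subtracted, the difference was 0.46 at Cubn +2.1 kb (exact permutation p = 0.171, adjusted p = 0.237) and 1.32 at Cubn -4.4 kb (exact permutation p = 0.0762, adjusted p = 0.143). It was -2.77 at Lrp2 +3.3 kb (exact permutation p = 0.0191, adjusted p = 0.0855) and -0.06 at Amn -3.1 kb (exact permutation p = 0.305, adjusted p = 0.37), and 0 of 2342 sites passed after adjustment with 958 at an unadjusted p under 0.05.

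**Figure D2:**
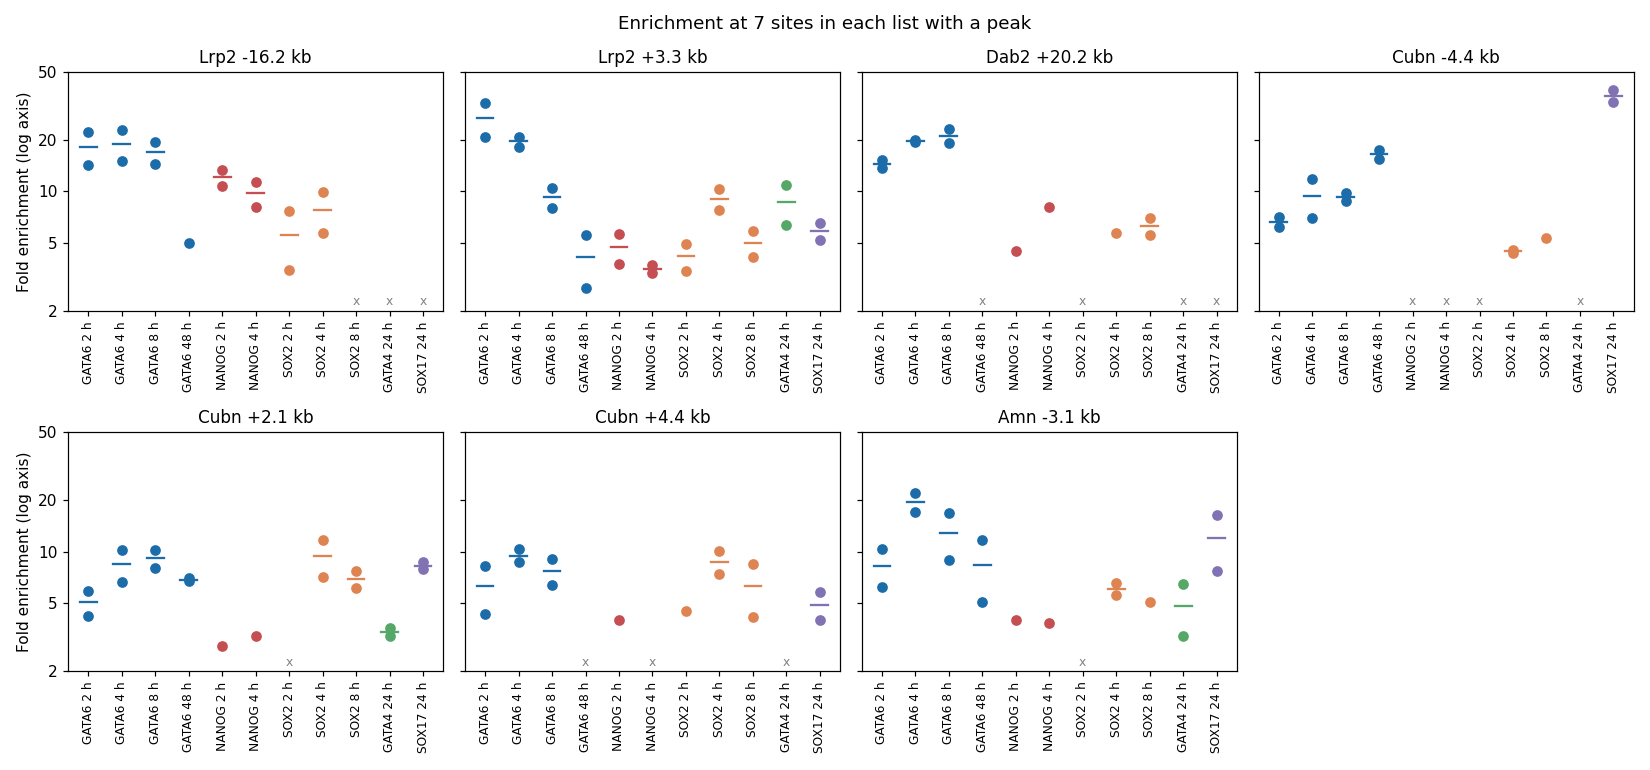
Fold enrichment (vertical, log axis) at the 7 sites found in 10 or more lists, in each group of lists (horizontal axis). Each point is 1 list with a peak, a bar is the mean of 2 lists, a cross marks a group in which no list has a peak, and groups without a peak at any of these sites are left out. GATA6 at Lrp2 +3.3 kb is highest at 2 h (33.1 and 20.8), at Cubn -4.4 kb at 48 h (17.4 and 15.4), where SOX17 reaches 33.2 and 39.2.

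A further question was whether GATA6 reached sites late. Of 8 sites with GATA6 in both 48 h lists, 2 had no GATA6 peak in any list of 2, 4 or 8 h, beside 20.1% of all GATA6 48 h sites. Both were chosen for naming after their values were seen. Lrp2 -39.4 kb, nearer to Bbs5, had folds of 8.3 and 7.67, and Lrp2 -18.0 kb had 9.07 and 5.16. The former had no peak of another protein, and the latter had a SOX17 peak in replicate 2, of fold 4.56, and a SOX2 2 h peak in replicate 2, of fold 3.16.

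The next question was whether NANOG and SOX2, the Epi factors, were at these sites before or after GATA6. NANOG had no peak near any of the 4 genes in the lists of 0 h or of 8 h, although 30.0% of all genes had 1 in both 0 h lists and 5.83% in both 8 h lists. At 2 h Lrp2 had 4 and 4 NANOG peaks, Cubn 3 and 0, Amn 2 and 1, and Dab2 0 and 1, so Lrp2 and Amn had a peak in both lists, beside 62.3% of all genes. At 4 h Lrp2 had 3 and 2, the other genes 0 or 1, and Lrp2 was the only 1 with a peak in both lists, beside 35.2% of all genes. No gene of 15925 passed the test over time for NANOG (0.0%, with 2148 at an unadjusted p under 0.05). The smallest exact permutation p that 8 lists allow is 0.00952, which 261 genes had. A gene could thus not pass after adjustment by its own counts alone, and the lowest adjusted p was 0.253. For Lrp2 the exact permutation p was 0.0286 and the adjusted p 0.253. Dab2 had too few NANOG peaks for the test.

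NANOG was in both 2 h lists at 3 sites, all near Lrp2. At the Lrp2 TSS there was no GATA6 peak at 2 h, and the other 2 were GATA6 sites. Of the 10 sites with GATA6 in both 2 h lists none had NANOG in both 0 h lists (13.2% of all such sites), and 2 had it in both 2 h lists and neither 0 h list (18.5% of all such sites), Lrp2 -16.2 kb and Lrp2 +3.3 kb. At Lrp2 -16.2 kb the NANOG fold was 13.4 and 10.8 at 2 h and 8.04 and 11.4 at 4 h. Here the coverage at 2 h was 22.8 and 18.8 times background, above the 6.65 and 5.99 at which the NANOG 0 h lists called peaks at their background. At Lrp2 +3.3 kb the NANOG fold was 5.63 and 3.75 at 2 h and 3.32 and 3.7 at 4 h, lower in all 4 lists than at Lrp2 -16.2 kb. The NANOG 0 h lists called folds from 3.65 and 3.66 at their background. Over the lists with a peak at Lrp2 +3.3 kb, of any protein, the local background was 1.07 to 5.97 times that of the list. Whether a NANOG peak of this strength would have been called there at 0 h was not tested. The count of 2 was 6 without NANOG 2 h replicate 2, since 4 further sites had NANOG in replicate 1 alone.

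SOX2 had 5 peaks near the 4 genes at 0 h, each in 1 list and none at the same site. No gene of the 4 had a SOX2 peak in both 0 h lists, while 62.6% of all genes did. At 2 h Lrp2 had 2 and 7 SOX2 peaks, Cubn 2 and 2, and Amn 1 and 2, so that these 3 had a peak in both lists, beside 60.9%. At 4 h Lrp2 had 4 and 5, Cubn 6 and 3, Amn 2 and 1, and Dab2 1 and 1, and all 4 had a peak in both lists, beside 62.0% of all genes. At 8 h Lrp2, Dab2 and Cubn had a peak in both lists, beside 37.4%. No gene of 17888 passed the test over time for SOX2 (0.0%, with 473 at an unadjusted p under 0.05). Here too the smallest exact permutation p was 0.00952, which 23 genes had, so a gene could not pass by its own counts alone. The exact permutation p was 0.0571 for Cubn (adjusted p = 0.821), 0.343 for Lrp2 (adjusted p = 0.821), 0.429 for Dab2 (adjusted p = 0.821) and 0.486 for Amn (adjusted p = 0.846).

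By site, SOX2 peaks shared by both 4 h lists lay only at GATA6 2 h sites. Of the 10 GATA6 2 h sites none had SOX2 in both 0 h lists, beside 26.1% of all such sites, and 7 had it in both 4 h lists, beside 35.7%. These 7 had no SOX2 peak in either 0 h list, a pattern of 14.1% of all such sites. There was no site with SOX2 in both 4 h lists outside these 7. Among them, Lrp2 +41.7 kb had SOX2 folds of 7.93 and 5.68 at 4 h but GATA6 peaks at 2 h only. Some SOX2 4 h peaks of 1 list lay at sites with no GATA6 peak, such as Cubn -8.7 kb (3.44) and Lrp2 +7.2 kb (4.19). At Cubn +2.1 kb the SOX2 fold was 11.7 and 7.05 at 4 h and 6.09 and 7.7 at 8 h. At Cubn +4.4 kb, also in an intron, SOX2 peaks of 8.65 and 7.36 at 4 h had summits 4329 and 4344 bp downstream. Replicate 1 of 4 h had another peak in this joined site, of 10.1, with its summit 5115 bp downstream. The SOX2 fold there at 8 h was 4.11 and 8.46. At Lrp2 +3.3 kb it was 3.42 and 4.88 at 2 h, 7.82 and 10.3 at 4 h, and 5.87 and 4.13 at 8 h, with both 4 h lists above the others. At Amn -3.1 kb it was 5.59 and 6.54 at 4 h. At Dab2 +20.2 kb both 8 h lists, with 6.98 and 5.57, and 1 list of 4 h had a peak. At a list's background the SOX2 0 h lists called a peak from a coverage of 9.62 and 8.69 times background. The SOX2 4 h peaks stood at 27.3 and 17.1 times local background at Lrp2 -16.2 kb. At Cubn +2.1 kb, where the local background was above that of the list, they stood at 15.2 and 10.1. They stood at 9.06 and 12.1 at Amn -3.1 kb, and at 6.61 and 8.09, below both limits, at Cubn -4.4 kb. Whether peaks of this strength would have been called at 0 h was not tested.

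The PrE factors GATA4 and SOX17 were mapped at 24 h only. GATA4 had 8425 and 4004 peaks in all, and Lrp2 and Amn had 1 and Cubn 2 in each list, while Dab2 had none. A GATA4 peak in both lists within 50 kb was found for 19.9% of all genes. By site, 3 of the 10 GATA6 2 h sites had GATA4 in both lists, beside 5.61% of all such sites. Its fold was 10.9 and 6.32 at Lrp2 +3.3 kb, 6.43 and 3.18 at Amn -3.1 kb, and 3.59 and 3.21 at Cubn +2.1 kb. These 3 also had SOX17 in both lists, and with a −log10 q of at least 5 the count was 1.

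SOX17 had the most peaks of any group near these genes. Cubn had 13 and 16 SOX17 peaks, more than 99.3% of genes, and Lrp2 had 8 and 10, more than 95.3% of genes. Amn had 3 and 6 and Dab2 2 and 1, and all 4 had a peak in both lists, as had 61.4% of all genes. Of 19 sites with SOX17 in both lists, 12 lay near Cubn, 4 near Lrp2, 2 near Amn and 1 near Dab2. Of the 10 GATA6 2 h sites, 5 had SOX17 in both lists, beside 25.4% of all such sites, and without GATA6 2 h replicate 1 the number was 8.

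The strongest SOX17 site was Cubn -4.4 kb, with a fold of 33.2 and 39.2 on 96 and 133 fragments (95% exact Poisson intervals 77.8 to 117 and 111 to 158). It ranked 250 of 27326 peaks and 262 of 41977 by q-value. Its SOX17 summits lay at -4223 and -4230 bp from the TSS, and its GATA6 summits at -4416 to -4278 bp. The 201 bases around the SOX17 summit held none of the searched letters, and those around the GATA6 summit held ACAATG as well as AGATAA. At Cubn -35.5 kb, in an intron of Trdmt1 and nearer to that TSS, the fold was 13.1 and 20.3, and at Cubn -18.0 kb it was 10.6 and 14.5, with GATA6 at 48 h of 8.01 and 5.32. These 2 sites were chosen for naming after their values were seen.

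The other genes had SOX17 at fewer sites. At Amn -3.1 kb its fold was 7.68 and 16.4. At Lrp2 +3.3 kb it was 6.48 and 4.87 at summits 3034 and 3096 bp downstream. In that site the highest SOX17 fold of replicate 2 was 5.18, at another peak. At Lrp2 +9.5 kb, with no GATA6 peak, it was 9.4 and 7.82. Dab2 -39.7 kb (chr15:6259688-6260517, intergenic), also chosen after its values were seen, had 15.9 and 22.9 and holds ACAAAG at 2 places in the printed sequence and no GATA letters. There GATA6 had a peak only in replicate 1 of 48 h, of fold 4.67, and SOX2 only in replicate 2 of 0 h, of fold 5.05. Lrp2, Cubn and Amn each had a site with SOX17 in both lists and GATA6 in both 2 h lists, and Dab2 had none.

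Of the 19 SOX17 sites, 5 had no GATA6 peak in any induced list, Lrp2 +9.5 kb and 4 near Cubn, beside 18.0% of all SOX17 sites. The 4 near Cubn lay between 5.72 and 15.6 kb upstream, and their SOX17 folds were 3.05 to 9.24. Over all 67 sites, 18 had a peak of both GATA6 and SOX17 in some list, 18 of GATA6 alone, 19 of SOX17 alone and 12 of neither.

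**Figure D3:**
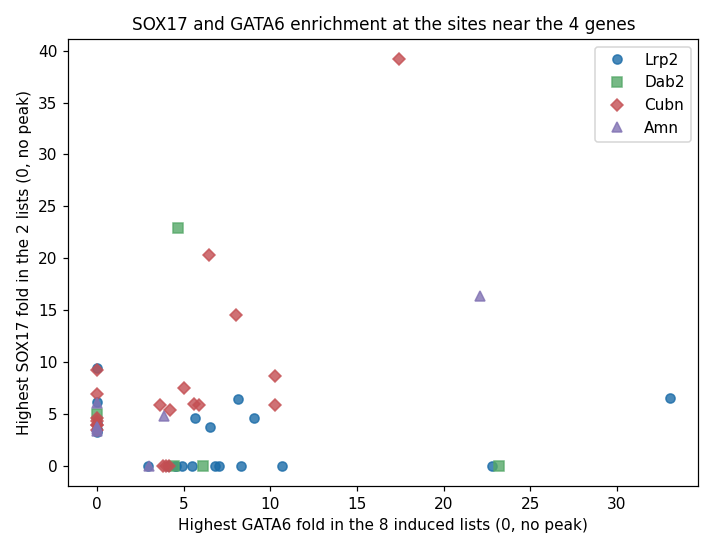
Highest SOX17 fold of the 2 lists (vertical axis) against the highest GATA6 fold of the 8 induced lists (horizontal axis) at the 55 sites with a peak of either protein, where 0 means no peak. Each point is a site and its shape and colour give the gene. Cubn -4.4 kb has the highest SOX17 fold (39.2), Lrp2 +3.3 kb the highest GATA6 fold (33.1), and 2 sites with GATA6 folds above 20 have no SOX17 peak (Lrp2 -16.2 kb and Dab2 +20.2 kb).

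Of the 67 sites, 3 reached within 1 kb of a TSS, and the share over all sites of the genome was not taken. At the Lrp2 TSS, with the centre 18 bp upstream, NANOG at 2 h had folds of 4.1 and 5.85 and SOX17 of 3.21 and 6.47, while GATA6 had a peak in replicate 2 of 4 h and of 8 h only, of 8.15 and 3.19. SOX2 there had a peak in 1 list each of 0 h (3.88), 2 h (4.92) and 4 h (4.73). At Cubn 351 bp upstream SOX17 had 5.76 and 5.81, and GATA6 had 3.65 in replicate 2 of 48 h. At Amn 90 bp downstream 1 SOX17 list had a peak of 3.68.

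A list of 17 other genes of receptor-mediated endocytosis served as background, among them the receptors Lrp1 and Folr1 and the coat and vesicle genes Ap2m1, Cltc and Rab5a. For GATA6, 12 of 17 passed the test over time, all with more peaks at 2 h than at 0 h, beside 47.6% of all genes and 0 of the 4 genes described above. The median difference between 2 and 0 h was 8.0 peaks. Folr1, a folate receptor, had 12.0 peaks more at 2 h than at 0 h (adjusted exact permutation p = 0.0284), against 7.0 for Lrp2 and 5.0 for Cubn. For NANOG and SOX2 0 of 15 tested passed, where no gene of the genome did and the number of lists limits the test. At 48 h 8 of 17 had a GATA6 peak in both lists, beside 20.6% of all genes. The gene of the receptor chaperone RAP, Lrpap1, named after its values were seen, had 5 GATA6 peaks in each 48 h list and 4 in each 2 h list (adjusted exact permutation p = 0.118).

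The likeness of each gene's pattern to other genes was measured by Pearson's r over the 30 lists of the log2 of 1 plus the summed fold within 50 kb, a description in which the lists share depth and antibody. Among at least 18886 genes more than 200 kb away, Trim14, Sh3bp5 and Nans were most like Lrp2 (r = 0.965, 0.961 and 0.955). For Cubn these were Usp40, Tpbgl and Fam78a (0.922 to 0.912), for Amn Appl2, Cfap65 and Ermp1 (0.957 to 0.898), and for Dab2 Hcar2, Hcar1 and Zfp395 (0.838 to 0.828). Among the 4 genes, Cubn and Amn were most alike with 0.845, and Lrp2 and Dab2 least with 0.622, so each gene had others in the genome that were more like it.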

How the data were processed

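CUT&RUN peak lists of 30 of the 57 samples were analysed. Histone marks, controls and embryos make up the other 27, which were not used here. The authors, by the study's methods, aligned reads with Bowtie2 to mm10, kept duplicate reads and called narrow peaks with MACS against a rabbit anti-rabbit antibody control. The deposited lists give the peaks of each library on its own, which the methods do not state. The deposited columns used were the fold enrichment (a ratio), the −log10 p-value and −log10 q-value of each peak and its summit. All peaks had a q-value of at most 0.05. The 63 peaks outside the 21 main chromosomes were left out.

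Summit coverage and local background were solved from fold and p in 28 lists, which gave a whole number of fragments for every peak tried (tolerance 0.001 in log10 p). The lowest local background of a list served as its depth. Peaks within 50 kb of each GENCODE vM21 protein-coding TSS were counted, and genes with at least 3 peaks were tested by exact permutation of the F statistic over the lists (945 groupings, smallest p 0.00106, for 10 lists, and 105, smallest p 0.00952, for 8). The p-value is the share of groupings with an F at least as high, and F rises with a change in either direction. P-values were adjusted over all genes, and a pair of time points was not tested. The test was checked on simulated data. Python 3 with NumPy, pandas and SciPy was used. Genes, lists and tests were chosen with earlier results of these data known. Sites named by rule were, for each gene, the one with the highest 2 h GATA6 fold, those with GATA6 in both lists at each induced time point, with GATA4 and SOX17 or with 0 h NANOG or SOX2 in both lists (none for the latter), and those within 1 kb of a TSS. Alternatives were other q-value limits, list lengths, windows, joining rules, gene filters, list omissions, a replicate block and the record's time points.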

Additional observations from a re-analysis of the deposited data

How the results depend on the processing

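Adjusted p-values here come from the exact permutation test. Of 180 repeats of the tests for the 4 genes, 173 stayed on the same side of the threshold. Part of this was fixed in advance. The repeats by the record's time points keep the same pairs of lists, so their p-values could not change. For NANOG and SOX2 a gene could not pass by its own counts alone. The difference between 2 and 0 h kept its direction in 171 and was 0 in 9, among them Cubn and Amn for GATA6 with the top 10000 peaks of each list. The GATA6 count of Lrp2 passed in a window of 100 kb (2 h minus 0 h 8.5 peaks, exact adjusted p = 0.0262) and per 10000 peaks of the list (0.983, adjusted p = 0.029). Its difference was 6.0 to 8.0 peaks with lists left out in turn, and it passed only without GATA6 4 h replicate 1 (7.0 peaks, exact adjusted p = 0.0471). Cubn passed with peaks of −log10 q of at least 5 (3.0, exact adjusted p = 0.0392), in 100 kb (16.0, adjusted p = 0.0186) and per 10000 peaks (0.714, adjusted p = 0.029), and Amn per 10000 peaks (0.206, exact adjusted p = 0.0445). The replicate block changed no call (Lrp2 7.0 peaks, exact adjusted p = 0.141, and Cubn 5.0, adjusted p = 0.104). Replicate numbers did not pair the lists, since deviations of lists with the same number correlated between -0.0789 and 0.0407. The 10 GATA6 2 h sites became 3 with the top 10000 peaks of each list, 22 in 100 kb, and 13 to 18 without single lists, 18 without GATA6 2 h replicate 2. Those with GATA6 at 48 h (4) became 1 with the top 10000 peaks, 7 by the GEO record, and 4 to 5 without single lists. In every site count a list left out no longer had to meet the rule, so the count could stay or rise but not fall. NANOG new at 2 h (2 sites) became 1, 4 in 100 kb, and 2 to 6 without single lists, 6 without NANOG 2 h replicate 2. NANOG at 0 h (0) became 1 and SOX2 at 0 h (0) became 3 in 100 kb. SOX17 (5) became 1, 12 in 100 kb, and 5 to 8, 8 without GATA6 2 h replicate 1. GATA4 (3) became 1 with the top 10000 peaks and 1 with −log10 q of at least 5. In the alternatives chosen after the data were seen, assigning peaks only to the nearest coding TSS changed no call. Causes were not tested. Where it could be obtained, the coverage over background needed to call a peak was highest in the GATA6 0 h lists (17.4 and 15.9). In SOX2 8 h replicate 1 it was 13.8. The background coverage of that list, 0.29, lay between those of the GATA6 0 h lists, 0.287 and 0.315. It held 14053 peaks, and they held 84 and 880.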
